A study of Mus musculus with 72 samples.

Results

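Liver at circadian time 20 (CT20) was examined for the genes that differed between a methionine- and choline-deficient (MCD) diet and a control diet, and for what set this time apart from the 5 others sampled. The 6 libraries were those labelled liver and CT20, 3 from each diet, of 72 libraries in the whole series. The other 30 liver libraries, from CT0 to CT16 at steps of 4 h, served as reference. Mice were labelled C57BL/6 (C57BL/6J in the protocol, bought at 8 to 12 weeks of age), with no other allele or agent. They were housed singly and ate the MCD diet TD.220158 or the isocaloric control diet TD.220157 freely, for 10 days of light and dark phases of 12 h each and an 11th day in constant darkness, on which CT20 fell. About 40 mg was taken from the middle of the left liver lobe, and libraries were made from polyadenylated RNA with a stranded kit. In each diet, replicates 1 and 2 were labelled male and replicate 3 female, although the protocol speaks of males alone. Values below are given in that order. The labels do not say which animal each library came from, so p-values measure the spread between these samples.

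Methionine and choline are the main dietary sources of methyl groups. The liver turns methionine into S-adenosylmethionine, the methyl donor used to make phosphatidylcholine, which is needed to export fat in lipoproteins, and a diet without both is a common model of fatty liver. Shortage of an amino acid is known to engage the integrated stress response, in which the transcription factor ATF4 and its partners switch on genes of amino acid supply. CT20 lies late in the subjective night, when mice are normally active and feeding, and when the clock activators Arntl (also called Bmal1) and Npas2 are high and their targets Dbp and Nr1d1 are low in liver.

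Total gene counts were 54741857, 58915736 and 54801788 on control and 57547291, 59869331 and 70380091 on MCD. Levels are given as CPM, the counts of a gene brought to a common library size with the TMM factors of edgeR. These factors were 0.899, 0.878 and 0.934 on control and 1.112, 1.015 and 1.090 on MCD. Alb, the main secreted protein of liver cells, lay between 62751 and 96281 CPM in the 6 libraries, and 7 of 9 pancreatic and 5 of 6 adipocyte markers were too low or not listed and so not tested. Libraries fell into groups by mt-Nd6, which the mitochondrial genome encodes on its light strand. It was at 871, 718 and 112 CPM on control and at 418, 95.0 and 64.8 CPM on MCD, so that 2 control and 1 MCD library were high. A male library of another time, control CT08 a, went against its label for some genes and with it for others. It held Pnpla5 at 0.158, Gnmt at 582 and Fgf21 at 16.7 CPM, outside the 17 other controls (0.850 to 15.9, 918 to 1945 and 0.401 to 4.68 CPM) and within the 18 MCD libraries (0 to 0.166, 248 to 916 and 13.3 to 134 CPM). Its Mat2a (69.7 CPM) and Aldh7a1 (291 CPM) lay within the other controls (47.4 to 102 and 272 to 420 CPM) and outside the MCD libraries (119 to 326 and 148 to 230 CPM). It enters the CT20 diet test through what the libraries share in the model: the spread, the scaling, the sex term and the filter on low counts. Counts and tests against the other times are given with and without it.

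Of 20249 genes tested, 2288 (11.3%) differed between the diets at CT20 in edgeR's quasi-likelihood test at an adjusted p under 0.05. They split into 1155 higher (5.7%) and 1133 lower (5.6%) on MCD, and 396 of the higher and 303 of the lower changed by at least 1 log2 unit, so that 3.45% of genes were called and changed that far. The balance rests on the scaling. With library totals alone, 3560 genes were called, 3087 higher and 473 lower, and the median over all genes moved from 0.03 to 0.27 log2. Changes are therefore relative to the median gene. The count was 2845 of the 20669 genes that passed the filter without control CT08 a. It fell to 1310 and 1238 without control CT20 1 and 2, and to 1276 and 1441 without MCD CT20 1 and 2. With the 6 CT20 libraries alone 1652 genes were called, 1216 of them among the 2288. Without the sex term 1811 were called, and with DESeq2 3164. In bulk tissue, fewer cells of a type and less RNA per cell cannot be told apart.

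**Figure D1:**
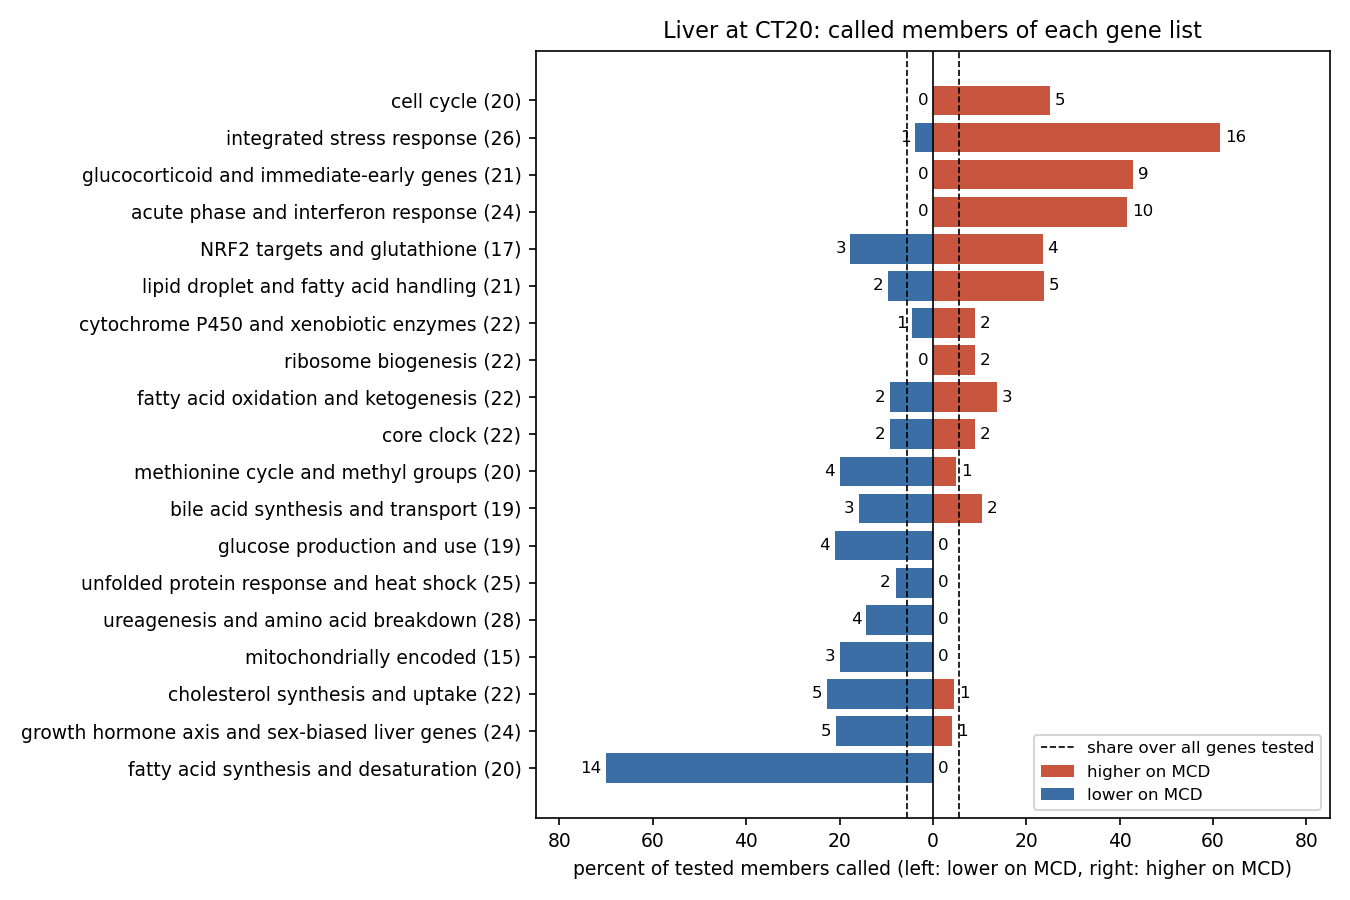
Share of the tested members of 19 gene lists called higher (right) or lower (left) on MCD in liver at CT20, with the number of called members at each bar, the number tested in brackets and dashed lines at the share over all genes tested. Integrated stress response genes stand highest on the right (16 of 26) and fatty acid synthesis genes on the left (14 of 20).

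In the methionine cycle list, Mat2a rose and 4 genes fell, of 20 tested, beside 5.7% higher and 5.6% lower over all genes, and the list median was -0.15 log2. Mat2a encodes the catalytic subunit of the methionine adenosyltransferase found mostly outside the adult liver. It was at 60.3, 47.4 and 66.6 CPM on control and at 246, 286 and 240.2 CPM on MCD, a change of 2.15 ± 0.18 log2 (SE, adjusted p = 6.23e-08). The groups did not overlap, and the 3 MCD values lay close together. Gnmt, the abundant methyltransferase that disposes of excess S-adenosylmethionine, fell from 1055, 1033 and 1945 CPM to 552, 916 and 535 CPM (log2 -1.03 ± 0.33, adjusted p = 0.0433). Aldh7a1, which oxidizes betaine aldehyde made from choline, fell from 371, 380.2 and 309 CPM to 166, 196 and 180.4 CPM (log2 -0.95 ± 0.11, adjusted p = 1.18e-05). Both sets of values were separate, but the female control was the highest for Gnmt and the lowest for Aldh7a1. Ahcyl1, a relative of the S-adenosylhomocysteine hydrolase Ahcy, and the methionine synthase Mtr fell by 0.33 and 0.30 log2. Mat1a, the liver form of the adenosyltransferase, changed by 0.10 ± 0.28 log2 (adjusted p = 0.86), and Bhmt and Pemt did not pass the test either. The Gnmt call was lost without control CT20 3 (adjusted p = 0.288), MCD CT20 1 or MCD CT20 3. That of Ahcyl1 was lost without any CT20 library but MCD CT20 2 (up to an adjusted p of 0.162). Both were also lost with library totals, no filter on low counts, no sex term and the 6 CT20 libraries alone. Gnmt was lost with limma and Ahcyl1 with the mt-Nd6 group as a term (up to an adjusted p of 0.115 and 0.454 over these fits). With library totals the list median was 0.09 log2 and only Aldh7a1 stayed among the lower genes, while 7 were lower with DESeq2 and 2 with the 6 CT20 libraries alone.

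In the integrated stress response list, 16 of 26 genes rose and 1 fell, against 5.7% and 5.6% over all genes tested, and the list median was 1.42 log2. Elements known to be bound by ATF4 and C/EBP proteins share the core TGATGNAA. That core was searched on both strands of the 250 bases before each start in the RefSeq promoter table (build GRCm38.p6), where 23 of the 26 genes had an entry. It was found for 8 of the 23 genes (34.8%), and for 3.91% of the 27025 genes of the table. Known ATF4 targets were used to draw up the list, so this share is not independent of it. Of the 8 genes, Atf3, Slc7a11, Asns, Fgf21, Nupr1 and Pck2 were called higher on MCD, and Chac1 and Vldlr were not called. The windows of 4 called genes are shown because they carry the core outside annotated transcripts, with the match on either strand in capitals:
Fgf21, chr7:45615592-45615659, minus strand: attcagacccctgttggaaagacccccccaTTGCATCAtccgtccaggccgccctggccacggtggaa
Atf3, chr1:191183406-191183473, minus strand: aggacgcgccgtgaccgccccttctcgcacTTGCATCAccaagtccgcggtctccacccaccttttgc
Slc7a11, chr3:50443623-50443709, minus strand: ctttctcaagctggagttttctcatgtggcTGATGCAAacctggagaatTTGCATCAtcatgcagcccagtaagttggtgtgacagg
Pck2, chr14:55540133-55540200, plus strand: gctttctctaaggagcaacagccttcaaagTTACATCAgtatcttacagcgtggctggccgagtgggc
Slc7a11 holds 2 matches in opposite orientation and the other 3 hold 1 each. A match describes these letters and shows neither binding nor a cause.

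Among the secreted products of this response, Fgf21, a hormone of nutrient shortage, was at 0.833, 1.01 and 1.06 CPM on control and at 13.3, 56.2 and 35.9 CPM on MCD (log2 5.18 ± 1.04, adjusted p = 0.00224). Gdf15, which acts on the brainstem to lower food intake, was at 1.18, 1.35 and 1.54 CPM and at 9.89, 14.9 and 21.9 CPM (log2 3.49 ± 0.64, adjusted p = 0.00089). For both, every MCD library lay above every control, and the MCD values varied more than the controls. Of the regulators, Atf3, a stress-induced transcription factor, was at 0.508, 0.948 and 1.50 CPM and at 20.3, 30.4 and 23.4 CPM (log2 4.66 ± 0.80, adjusted p = 0.000559). Trib3, a pseudokinase that restrains Akt and ATF4, was at 2.26, 3.56 and 3.19 CPM and at 43.6, 47.3 and 26.6 CPM (log2 3.64 ± 0.56, adjusted p = 0.000207). These groups were also far apart. Ddit3 (CHOP), Atf5 and the chromatin protein gene Nupr1 rose by 1.69, 1.05 and 3.35 log2. Atf4 itself, which is regulated largely in translation, was at 101, 103 and 96.6 CPM and at 87.5, 147 and 109 CPM, with overlapping groups (log2 0.19 ± 0.20, adjusted p = 0.586). Among amino acid genes, Asns (asparagine synthetase, log2 3.09 ± 0.78) and the transporter subunit Slc3a2 (log2 0.92 ± 0.22) rose. Slc7a11, the cystine transporter, lay at 0 to 0.061 CPM on control and at 2.41, 0.576 and 0.182 CPM on MCD, and its call (adjusted p = 0.0308) was lost without control CT20 1, 2 or 3 or MCD CT20 1 (adjusted p = 0.151 without the last). Shmt2 of mitochondrial serine metabolism was the member that fell, by 0.43 log2 (adjusted p = 0.049). Leaving out any 1 CT20 library left 12 to 15 members higher and none lower.

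**Figure D2:**
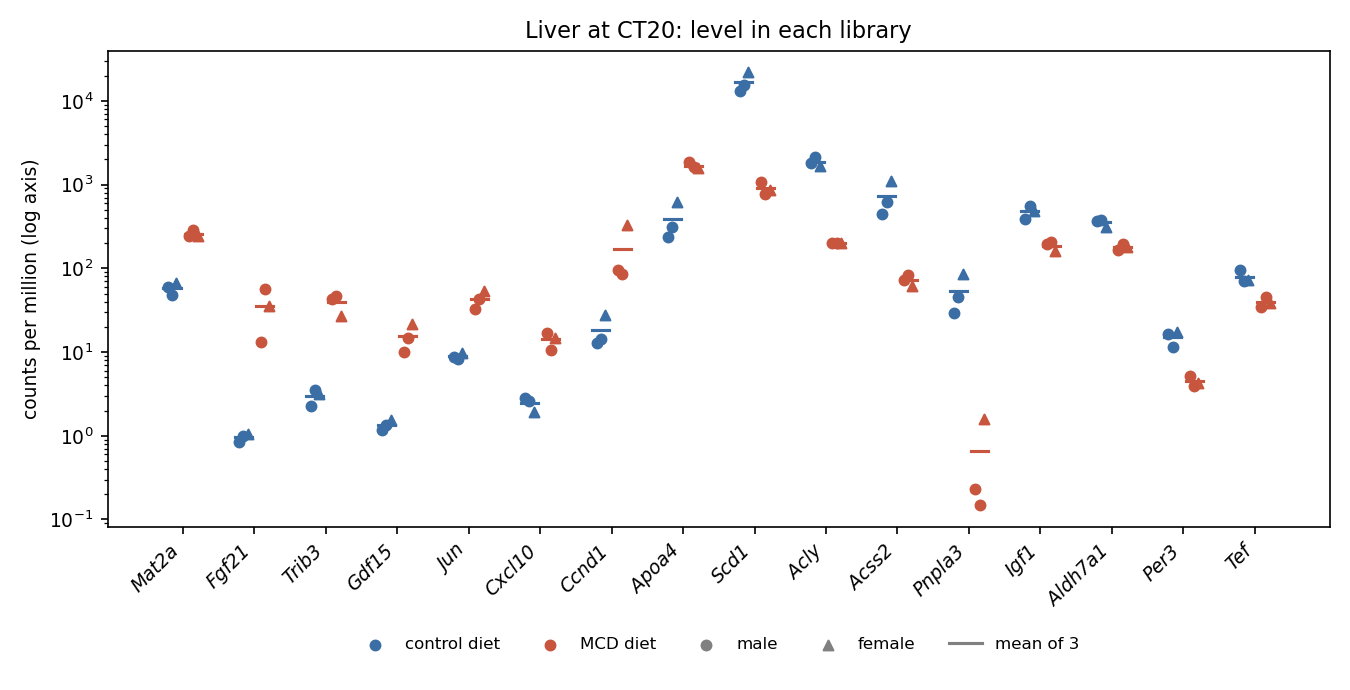
Level of 16 genes in the 6 CT20 libraries in CPM on a log axis, control in blue and MCD in red, circles for males, triangles for females and a bar at the mean of 3. Mat2a to Apoa4 lie higher and Scd1 to Tef lower on MCD, with no overlap between the diets in any of the 16.

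Genes of fatty acid synthesis fell as a group: 14 of 20 were called lower beside 5.6% of all genes, none higher, all 20 changes were negative, and the list median was -2.19 log2. At the head of the path, Acly, which makes cytosolic acetyl-CoA from citrate, was at 1808, 2126 and 1670.3 CPM on control and at 198, 201 and 203 CPM on MCD (log2 -3.22 ± 0.63, adjusted p = 0.00159). Acss2, which makes it from acetate, went from 439.5, 619 and 1106 CPM to 71.8, 83.5 and 61.1 CPM (log2 -3.24 ± 0.55, adjusted p = 0.000495). The MCD values of both were tight and far below the lowest control. The carboxylases Acaca and Acacb (log2 -1.28 and -2.80), the NADPH source Me1 (log2 -2.30) and the elongases Elovl5 and Elovl6 (log2 -2.09 and -2.41) fell too. Scd1, the main liver stearoyl-CoA desaturase, was at 13173, 15405 and 21900.4 CPM on control and at 1077, 778 and 856 CPM on MCD (log2 -4.18 ± 0.66, adjusted p = 0.000238). Pnpla3, the lipid droplet protein whose human variant is tied to fatty liver, went from 29.0, 45.1 and 84.8 CPM to 0.234, 0.148 and 1.58 CPM (log2 -6.72 ± 0.92, adjusted p = 6.45e-05). Its neighbour in sequence Pnpla5 went from 5.81, 12.8 and 6.29 CPM to 0.0781, 0 and 0.143 CPM (adjusted p = 0.000847). For all 3 genes the lowest control was many times the highest MCD library. Fasn, the synthase itself, was at 2847, 3980.3 and 3679 CPM against 843, 1297 and 893 CPM, without overlap, but its change of -1.76 ± 0.78 log2 did not pass the test (adjusted p = 0.148). The regulator Srebf1 changed by -1.08 ± 0.41 log2 (adjusted p = 0.0919). Leaving out any 1 CT20 library left 11 to 14 members lower.

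In the cholesterol list, 5 of 22 genes fell and 1 rose, beside 5.6% and 5.7% of all genes, with a median of -0.92 log2. Pmvk, an early enzyme of the mevalonate path, was at 89.6, 93.1 and 101 CPM on control and at 23.8, 29.6 and 27.8 CPM on MCD (log2 -1.80 ± 0.44, adjusted p = 0.00894). Sc5d, a late sterol desaturase, was at 726, 802 and 932 CPM and at 267, 308 and 378 CPM (log2 -1.37 ± 0.28, adjusted p = 0.00202). Both sets were separate. Nsdhl, Lss and Dhcr7, enzymes of the steps after squalene, fell by 1.76, 1.33 and 1.33 log2. With the 6 CT20 libraries alone 13 members were lower and 0 higher, and with any 1 CT20 library left out of the fit on all libraries 2 or 3 were lower. None was higher without control CT20 1, control CT20 2 or MCD CT20 2, or without the sex term. Without any of the 6, neither Nsdhl nor Lss stayed called (largest adjusted p = 0.134 and 0.169, both without MCD CT20 1).

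Of the genes of the lipid droplet and of fatty acid handling, 5 of 21 rose and 2 fell, beside 5.7% and 5.6% of all genes, with a median of 0.40 log2. With library totals alone 8 were higher and 1 lower, and without the sex term 3 were higher and 2 lower. Apoa4, an apolipoprotein that rises with liver fat, was at 239.6, 311 and 618 CPM on control and at 1868, 1624 and 1577 CPM on MCD (log2 2.24 ± 0.57, adjusted p = 0.0116). Cidec, which fuses droplets, was at 0.386, 0.425 and 0.449 CPM and at 6.86, 4.71 and 6.27 CPM (log2 3.82 ± 1.07, adjusted p = 0.0226). Neither gene overlapped between the diets. The lipase inhibitor G0s2 and the fatty acid carrier Cd36 rose by 2.54 and 1.46 log2 with overlapping groups, the first through an MCD library at 379.6 CPM, and the droplet coat protein gene Plin5 rose by 0.87 log2. Fabp1, the liver fatty acid binding protein, went from 2489, 2831 and 1285 CPM to 910.4, 859 and 1084 CPM (log2 -1.20 ± 0.34, adjusted p = 0.0242), and Cideb, which matures lipoproteins, fell by 0.39 log2. Leaving out control CT20 1 or control CT20 2 left none of the list called (adjusted p of Apoa4 0.0629, without the first). Cidec was also lost without control CT20 3 or MCD CT20 1, Cd36 without any MCD library, and G0s2 without MCD CT20 2 (adjusted p = 0.304). Other fits ended these calls too: Cidec with limma (adjusted p = 0.206) and Cd36 without the sex term (adjusted p = 0.32). G0s2 was lost without the sex term and with the 6 CT20 libraries alone (up to an adjusted p of 0.221).

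Of 22 fatty acid oxidation genes tested, 3 rose and 2 fell, beside 5.7% and 5.6% of all genes, and the median was 0.05 log2 against 0.03 log2 over all genes. With library totals alone 6 were higher and 2 lower, with a median of 0.30 log2. Cyp4a14, an omega-hydroxylase, was at 86.0, 20.3 and 516 CPM on control and at 433, 1191 and 1470.2 CPM on MCD, so the female control lay within the MCD range (log2 2.98 ± 0.93, adjusted p = 0.0394, lost without any CT20 library but control CT20 3, up to an adjusted p of 0.155). Ucp2, a mitochondrial carrier, and Vnn1, a pantetheinase, rose by 0.92 and 1.02 log2. With any 1 CT20 library left out, 1 to 3 members were higher and 0 to 2 lower, with 1 and 0 without MCD CT20 1, 1 and 1 without control CT20 1 or 2 and 1 and 2 without MCD CT20 2. Without the sex term none was higher, and Ucp2 lost its call (adjusted p = 0.0773). The call of Vnn1 was lost without control CT20 1 or 2 or MCD CT20 1 or 2 (up to an adjusted p of 0.162). The thiolase Acaa2 fell by 0.65 log2, and Ppara, the receptor that drives these genes, changed by -0.13 ± 0.23 log2 (adjusted p = 0.76).

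Immediate-early and glucocorticoid-related genes rose in 9 of 21 cases and fell in none, beside 5.7% and 5.6% of all genes, with a median of 0.98 log2. Jun, a subunit of the AP-1 factor, was at 8.72, 8.26 and 9.61 CPM on control and at 32.3, 43.0 and 53.2 CPM on MCD (log2 2.27 ± 0.51, adjusted p = 0.00503). Its partner Fos was at 0.569, 0.735 and 0.840 CPM and at 3.61, 5.99 and 7.39 CPM (log2 2.98 ± 0.48, adjusted p = 0.000274). Both genes were separate between the diets, and their MCD values varied more than the controls. Fosb, Gadd45b, Ier3, Klf6, Btg2, Junb and Ier2 made up the other risers, at 3.80 to 0.60 log2. The known glucocorticoid targets Fkbp5, Tsc22d3 and Sgk1 were not called: their values were 0.72, -0.50 and 0.51 log2, with adjusted p of 0.264, 0.431 and 0.362. Egr1 was at 75.7 and 74.8 CPM in the control males, at 7.27 CPM in the control female and at 84.2, 119 and 89.5 CPM on MCD (adjusted p = 0.307).

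Acute phase and interferon genes rose in 10 of 24 cases and fell in none, beside 5.7% and 5.6% of all genes, with a median of 0.87 log2. Most of the risers were interferon-stimulated genes. Cxcl10, a chemokine that draws T cells, was at 2.80, 2.59 and 1.93 CPM on control and at 16.9, 10.7 and 14.9 CPM on MCD (log2 2.52 ± 0.41, adjusted p = 0.000274). Usp18, which removes the ubiquitin-like ISG15 from proteins, was at 4.94, 6.85 and 10.0 CPM and at 29.7, 24.8 and 27.1 CPM (log2 1.92 ± 0.35, adjusted p = 0.000847). The groups were separate for both. Ifit1, Isg15, Irf7 and Oasl1 rose by 1.74, 1.60, 0.96 and 0.94 log2. Of acute phase proteins, Apcs (serum amyloid P, adjusted p = 0.0546 with the 6 CT20 libraries alone) and Hp rose by 1.87 and 0.54 log2, while Saa1, Saa2 and Saa3 changed by 0.62, 0.87 and 1.43 log2 without passing the test. Leaving out 1 CT20 library left 5 to 9 members higher, with 5 without control CT20 1, MCD CT20 1 or MCD CT20 2, and with the 6 CT20 libraries alone 6 were higher and 1 lower.

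Markers of other cell types moved beside these lists. Macrophage markers rose in 4 of 11 cases (Trem2, Marco, Vsig4 and Clec4f) beside 5.7% of all genes, in 8 with the 6 CT20 libraries alone and in 1 without the sex term, and their summed level was 363 to 518 CPM on control and 611 to 751 CPM on MCD. Marco, a scavenger receptor, was at 3.72, 3.09 and 3.19 CPM and at 26.4, 16.3 and 16.9 CPM (log2 2.59 ± 0.83, adjusted p = 0.0446). Trem2, a lipid receptor of macrophages, was at 0.264, 0.387 and 0.703 CPM and at 5.02, 1.51 and 2.76 CPM (log2 2.77 ± 0.80, adjusted p = 0.0263). The sums and both genes were separate between the diets. Without any 1 CT20 library, 1 or 2 of the markers stayed called. Vsig4 stayed in all 6 cases (but not without the sex term, adjusted p = 0.12), and Marco and Clec4f in none. Trem2 stayed except without control CT20 1 or 2 or MCD CT20 1 (up to an adjusted p of 0.122). With limma, neither Trem2 (adjusted p = 0.196) nor Marco was called. Neutrophil markers summed to 3.00 to 3.42 CPM and 6.96 to 12.4 CPM, and none of 5 tested was called. Stellate cell (0 of 10) and lymphocyte markers (0 of 11) were not called, and 1 of 10 endothelial markers (Stab2) and 1 of 7 bile duct markers (Sox9) rose, beside 5.7% of all genes, calls that were lost without MCD CT20 2 (Sox9, adjusted p = 0.152) or control CT20 2 (Stab2, adjusted p = 0.162) among others. Erythrocyte markers summed to 276 to 344 CPM on control and 149 to 207 CPM on MCD, with none called. Of the 9 hepatocyte markers, Serpina1a fell (log2 -0.61, adjusted p = 0.0489), and that call was lost without any 1 of the 6 libraries (largest adjusted p = 0.145, without MCD CT20 1). The part of these cells in the gene lists was not tested.

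Cell cycle genes all changed upwards in sign, with a median of 1.72 log2, and 5 of 20 were called beside 5.7% higher over all genes. Ccnd1, cyclin D1, was at 12.8, 14.3 and 28.0 CPM on control and at 95.9, 85.9 and 329 CPM on MCD (log2 3.05 ± 0.61, adjusted p = 0.00202). Ccne1, cyclin E1, was at 0.346, 0.406 and 0 CPM and at 2.47, 1.09 and 1.86 CPM (log2 2.94 ± 0.74, adjusted p = 0.0111). Both were separate, and the MCD female had the highest Ccnd1. Top2a, Cdk1 and Ccnb1, genes of replication and mitosis, rose by 2.20, 2.23 and 3.82 log2. Mki67, a marker of dividing cells, was at 2.48, 2.36 and 3.77 CPM and at 19.3, 5.58 and 9.63 CPM without passing the test (adjusted p = 0.0674). The number called was 7 without MCD CT20 2, 3 without MCD CT20 3 and 2 without MCD CT20 1 or any 1 control library. Ccnd1 and Ccne1 stayed called in all 6 cases, but limma called 1 member, library totals alone 9 and DESeq2 10. Ccne1 lost its call with limma and with the 6 CT20 libraries alone (up to an adjusted p of 0.0902).

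In the list of the growth hormone axis and sex-biased liver genes, 5 of 24 fell and 1 rose, beside 5.6% and 5.7% of all genes, with a median of -1.14 log2. Igf1, the hormone that the liver secretes under growth hormone, was at 394, 558 and 482 CPM on control and at 193, 204 and 160.3 CPM on MCD (log2 -1.37 ± 0.22, adjusted p = 0.000238). Ghr, the growth hormone receptor, fell by 0.94 log2 and Igfbp2, an IGF binding protein, rose by 0.72 log2. Serpina1e, a male-biased protease inhibitor, was at 11860.4, 11828 and 1318 CPM and at 1166, 872 and 526 CPM (log2 -2.86 ± 0.65, adjusted p = 0.00537). Mup3, a major urinary protein, was at 10293, 10022 and 1443 CPM and at 1389, 980.4 and 290.4 CPM (log2 -2.88 ± 0.70, adjusted p = 0.00854). In both the control female was far below the control males, yet still above every MCD library. Sult3a1, a female-biased sulfotransferase, was at 0 CPM in all 4 males and at 58.3 CPM in the control female against 1.13 CPM in the MCD female. Its call (adjusted p = 0.00591) therefore compares 1 female with 1 female, and it was lost without either (adjusted p = 0.916 without control CT20 3). With any 1 CT20 library left out, 3 to 6 members were lower and 0 or 1 higher, with 3 lower and 0 higher without MCD CT20 3 and 0 higher without control CT20 1. With the 6 CT20 libraries alone 9 were lower and 0 higher. Without the sex term 2 were lower, and Mup3 lost its call (adjusted p = 0.0926). Serpina1e, Mup3 and Sult3a1 belong to families of near-identical copies, among which reads may have been split.

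Among other liver functions, to be read beside the 5.7% of all genes called higher and 5.6% called lower, glucose genes fell in 4 of 19 cases and rose in none (median -0.24 log2). Fbp1, a gluconeogenic phosphatase, was at 1113, 1108 and 1165 CPM and at 550.0, 696 and 570.3 CPM (log2 -0.90 ± 0.15, adjusted p = 0.000333). Pygl, which breaks down glycogen, was at 922, 984 and 807 CPM and at 415, 437 and 418 CPM (log2 -1.09 ± 0.20, adjusted p = 0.000811). Both were separate, while Pck1, the entry enzyme of gluconeogenesis, overlapped (log2 0.54 ± 0.79, adjusted p = 0.715). Genes of urea synthesis and amino acid breakdown fell in 4 of 28 cases and rose in none (median -0.41 log2). Among them were Asl and Otc of the urea cycle (log2 -1.07 and -0.68) and Fah and Hgd of tyrosine breakdown (log2 -0.69 and -0.64). In the bile acid list, Slc27a5, Slc10a1 and Cyp27a1 fell (log2 -1.17, -1.34 and -0.79). The phospholipid exporter Abcb4 and the sterol exporter Abcg5 rose (log2 0.77 and 1.25), and 14 of 19 were not called. Cyp7a1, the rate-limiting enzyme of bile acid synthesis, was at 129, 177 and 167 CPM and at 57.5, 212 and 67.8 CPM (adjusted p = 0.771). With the 6 CT20 libraries alone 7 glucose genes were lower and 1 higher, and in the bile acid list 5 lower and 1 higher, and with DESeq2 8 urea and amino acid genes were lower. With library totals alone the glucose list had 1 gene higher and 3 lower with a median of 0.01 log2, the urea and amino acid list 3 higher and 4 lower with a median of -0.17 log2, and the bile acid list a median of 0.02 log2. Without 1 CT20 library, 2 to 4 glucose genes and 2 to 7 urea and amino acid genes stayed lower, with 2 glucose genes without control CT20 1, control CT20 2 or MCD CT20 1 and 2 urea and amino acid genes without control CT20 3, MCD CT20 1 or MCD CT20 3. Leaving out 1 of the last 3 also lost the calls of Fah and Hgd (up to an adjusted p of 0.0965 and 0.0577, without control CT20 3). In the bile acid list, none was higher without any CT20 library but control CT20 3, so that Abcb4 and Abcg5 both lost their calls (Abcg5 up to 0.172), and 1 to 3 were lower. There, Cyp27a1 was lost without any library but MCD CT20 2 (up to 0.126), and Slc10a1 without control CT20 2 or 3 or MCD CT20 1 or 3 (up to 0.0887).

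Of 17 genes of redox defence tested, 4 rose and 3 fell beside 5.7% and 5.6% of all genes (median 0.41 log2). The risers were Gss, which completes glutathione, at 42.1, 29.0 and 22.2 CPM and at 74.1, 74.7 and 97.5 CPM (log2 1.42 ± 0.23, adjusted p = 0.000259), and Gstm1, Gsta2 and Srxn1 (log2 1.31, 1.81 and 1.76). The genes that fell were Pgd, Tkt and Taldo1 of the pentose phosphate path (log2 -0.89, -0.64 and -0.27). With library totals alone 6 members were called higher and none lower, and with DESeq2 7 higher and 3 lower. With any 1 CT20 library left out, 2 to 4 were higher and 0 to 2 lower, none lower without control CT20 2. Srxn1 was lost without any 1 of the 6 libraries (up to an adjusted p of 0.119, without control CT20 2), and Gsta2 without any but control CT20 3 (up to 0.13). Of 22 cytochrome P450 and xenobiotic genes, Cyp2c55 and Cyp3a11 rose (log2 2.39 and 1.06) and the carboxylesterase Ces2a fell (log2 -1.19), a share of 3 in 22 beside 11.3% over all genes, with 4 higher and 3 lower in DESeq2 and 1 each without the sex term. Cyp3a11 was lost without any 1 of the 6 (largest adjusted p = 0.158, without MCD CT20 3), and Ces2a without MCD CT20 1 (adjusted p = 0.0597).

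Of 25 chaperone and endoplasmic reticulum stress genes, Edem1 and Hspd1 fell and none rose (median -0.38 log2), 2 in 25 beside 5.6% over all genes. Hspa5 (BiP), the main chaperone of the endoplasmic reticulum, was at 1438, 2051 and 393 CPM on control and at 767, 787 and 1418 CPM on MCD (log2 -0.26 ± 0.37, adjusted p = 0.711). The control female was lowest and the MCD female highest within their diets. Without control CT20 3, 8 members were called lower, and without MCD CT20 3, 9 members, while without control CT20 2 or MCD CT20 1 none was. With library totals alone, 2 members were called higher and none lower, and with the 6 CT20 libraries alone 2 higher and 1 lower. Neither Edem1 nor Hspd1 was called in those fits (up to an adjusted p of 0.103 and 0.35). Edem1 was lost without control CT20 2 (adjusted p = 0.0821) or MCD CT20 1, and Hspd1 without any CT20 library but control CT20 3 (up to an adjusted p of 0.148). Ribosome biogenesis genes were called in 2 of 22 cases beside 5.7% over all genes, Ubtf and Gnl3, both higher (log2 0.53 and 0.49). The count was 8 with library totals alone, with a median of 0.45 log2 instead of 0.20. It was 1 to 4 with any 1 CT20 library left out, 4 without control CT20 2 and 1 without any other. Ubtf lost its call with the 6 CT20 libraries alone (adjusted p = 0.0576), Gnl3 losing its call without any CT20 library but control CT20 2 (up to an adjusted p of 0.177, without control CT20 3).

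Mitochondrially encoded genes fell in 3 of 15 cases beside 5.6% of all genes and rose in none, with a median of -0.48 log2. mt-Nd2 was at 7328, 7178 and 5406 CPM on control and at 3212, 2344 and 3286 CPM on MCD (log2 -1.16 ± 0.26, adjusted p = 0.00576). mt-Cytb was at 12167, 12929 and 10969 CPM and at 7107, 7321 and 6294 CPM (log2 -0.80 ± 0.18, adjusted p = 0.00414). Both encode respiratory chain subunits, and neither overlapped. mt-Nd5 fell by 0.76 log2 and lies opposite mt-Nd6, whose level set the libraries apart. Its call was lost without control CT20 2 (adjusted p = 0.119), control CT20 3, MCD CT20 1 or MCD CT20 3. With the mt-Nd6 group of the library as a term, 3 members were again called lower, with DESeq2 5 and with the 6 CT20 libraries alone 6. As mt-Nd6 is itself 1 of the 15 members, the fit with that term is not independent of the list.

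Outside the lists, the largest falls at CT20 included genes that almost vanished on MCD. Chrna4, a neuronal nicotinic receptor subunit, was at 33.1, 68.6 and 99.3 CPM on control and at 0.344, 0.165 and 0.665 CPM on MCD (log2 -7.39 ± 0.98, adjusted p = 4.75e-05). Fabp5, a fatty acid binding protein, was at 50.3, 101 and 90.6 CPM and at 6.13, 3.51 and 4.25 CPM (log2 -4.11 ± 0.53, adjusted p = 3.16e-05). Scd4, a desaturase close in sequence to Scd1, had 1187 counts over the control libraries and 0 over the MCD libraries, at least 524-fold lower against a floor of 3 counts over the group (adjusted p = 0.014). Its call was lost without MCD CT20 1 or MCD CT20 3 (adjusted p = 0.0553 without the last) and with limma (adjusted p = 0.251). The glucose transporter Slc2a4, the GTPase-activating protein gene Srgap3 and the leucine-rich repeat genes Lrit1 and Lrit2 fell by 3.51, 3.60, 3.40 and 3.96 log2. Zbtb7c and Serpina4-ps1 completed the 12 with Scd1, Pnpla3 and Pnpla5, and Serpina4-ps1 was lost without the sex term (adjusted p = 0.0926), Zbtb7c without control CT20 2 (adjusted p = 0.118) and Slc2a4 without MCD CT20 1 (adjusted p = 0.0511).

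The largest rises outside the lists were led by genes that were silent on control. Sprr1a, a cornified envelope protein tied to tissue repair, was at 0.0407, 0 and 0 CPM on control, 2 counts in all, and at 5.70, 3.24 and 2.42 CPM on MCD (adjusted p = 0.00581, but 0.212 with limma). Gpat3, which starts triglyceride synthesis, was at 0.976, 0.928 and 4.47 CPM and at 21.6, 19.2 and 21.1 CPM (log2 3.57 ± 0.67, adjusted p = 0.00117). Esco2, a cohesin acetyltransferase of S phase, rose by 3.61 log2. Vmn2r3, a vomeronasal receptor gene of a large family, had 0 counts on control and was at 10.1, 1.73 and 0.130 CPM on MCD, at least 192-fold higher over the group, but the MCD libraries differed widely and its call was lost without any 1 of the 6 (largest adjusted p = 0.145, without control CT20 2). mt-Tg, a mitochondrial transfer RNA, was at 3.07, 2.01 and 1.25 CPM and at 13.1, 69.7 and 11.8 CPM, and was lost without MCD CT20 2 (adjusted p = 0.169) or any 1 control. Esco2 was lost without MCD CT20 1 (adjusted p = 0.0832), control CT20 2 or control CT20 3.

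Core clock genes were called in 4 of 22 cases beside 11.3% of all genes, 2 higher and 2 lower, with a median of 0.02 log2. In the clock loop, ARNTL with CLOCK or NPAS2 drives Per, Cry and Nr1d genes and the factors Dbp, Tef and Hlf, while Nr1d proteins repress Arntl. Per3 was at 16.6, 11.5 and 17.4 CPM on control and at 5.23, 3.92 and 4.26 CPM on MCD (log2 -1.74 ± 0.44, adjusted p = 0.0115). Tef was at 94.6, 70.4 and 73.0 CPM and at 34.0, 45.2 and 38.5 CPM (log2 -1.01 ± 0.22, adjusted p = 0.00383). Both genes were separate between the diets. Nr1d2 was at 17.7, 8.12 and 15.2 CPM and at 28.1, 18.4 and 26.5 CPM (log2 0.83 ± 0.27, adjusted p = 0.0453), and the kinase gene Csnk1e rose by 0.64 log2. Npas2 lay at 8.31, 12.8 and 22.6 CPM and at 22.9, 27.4 and 33.2 CPM, just without overlap, but did not pass (log2 1.00 ± 0.67, adjusted p = 0.363). Arntl changed by 0.34 ± 0.39, Clock by 0.09 ± 0.18, Cry1 by 0.09 ± 0.30, Per1 by -0.69 ± 0.57 and Per2 by -1.01 ± 0.57 log2, none of them called. Nr1d1, Dbp, Cry2, Rora, Bhlhe40, Bhlhe41, Ciart, Hlf, Nfil3, Usp2 and Csnk1d were not called either. Of the fits without 1 CT20 library, Per3 was lost without MCD CT20 3 (adjusted p = 0.055) and Csnk1e in 4 (up to an adjusted p of 0.0662). Nr1d2 was lost in 4 (up to an adjusted p of 0.232, without control CT20 2). It was also lost with limma, with the mt-Nd6 group as a term and with the 6 CT20 libraries alone (up to an adjusted p of 0.158). Without some single libraries of other times, such as control CT0 1, the list had 1 member higher instead of 2.

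Promoter letters were examined for the clock list, of which 18 genes had an entry in the RefSeq table. The E-box CACGTG, the site of CLOCK and ARNTL, was found before the start of 5 of the 18 (27.8%), Ciart, Bhlhe41, Cry1, Per1 and Tef, and for 6.86% of all genes of the table. Known targets of these factors are among the genes of the list, so the share is not independent of it, which holds for the next motif too. The D-box TTATGTAA, the site of DBP, TEF and HLF, was found for 1 of the 18, Per3, and for 0.977% of all genes. The windows of Per3 and of 1 of the starts of Tef, the clock genes that fell, are shown with matches in capitals:
Per3, D-box, chr4:151044786-151044900, minus strand: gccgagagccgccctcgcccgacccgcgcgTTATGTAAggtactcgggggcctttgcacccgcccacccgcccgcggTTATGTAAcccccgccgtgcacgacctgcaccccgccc
Tef, E-box, chr15:81811246-81811311, plus strand: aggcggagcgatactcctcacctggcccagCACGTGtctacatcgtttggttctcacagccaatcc
The Per3 window holds the D-box at 2 places in the same orientation. Binding was not measured here.

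**Figure D3:**
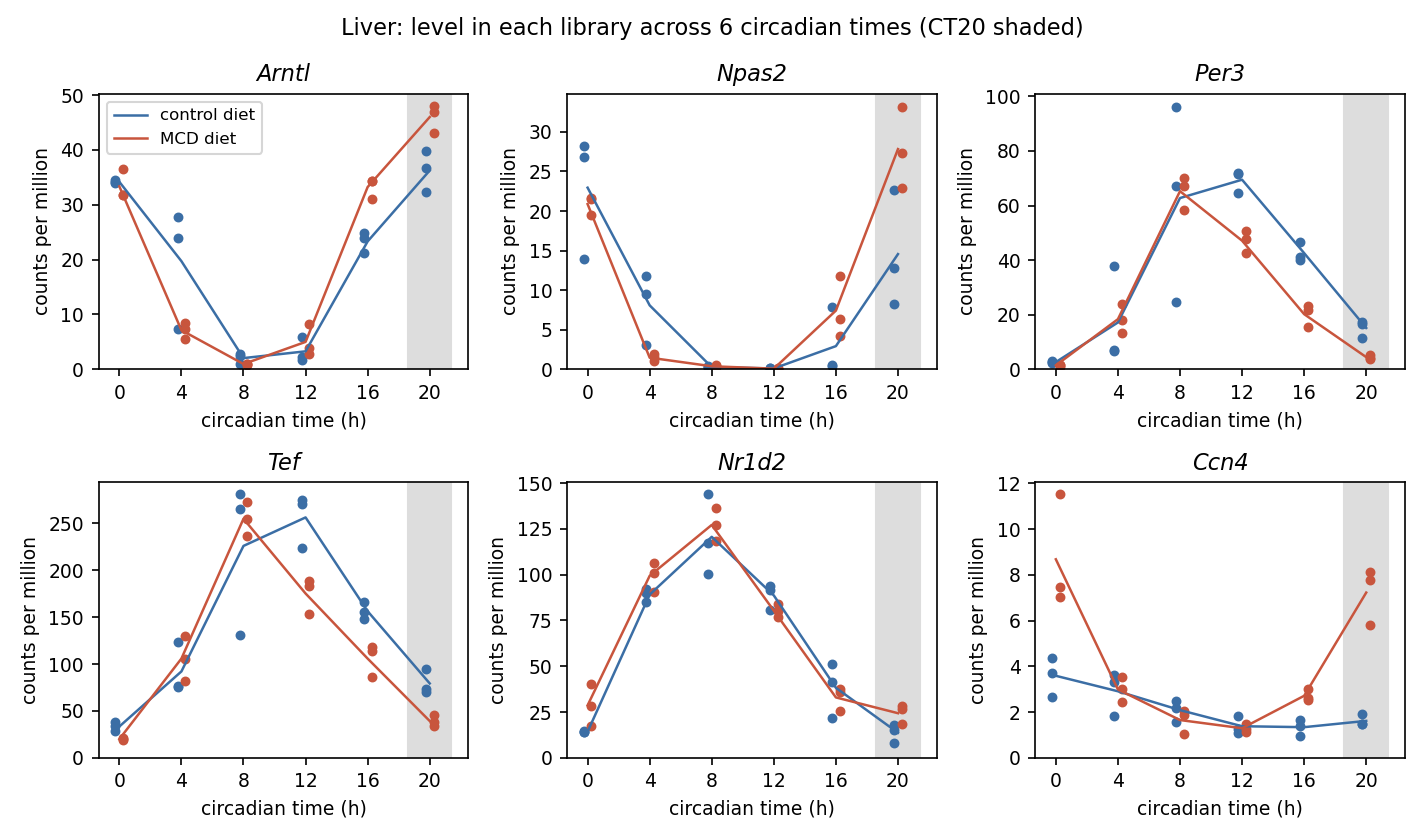
CPM of 5 clock genes and Ccn4 in every liver library across 6 circadian times, control in blue and MCD in red, lines through the means of 3 and CT20 shaded. At CT20, Per3 and Tef lie lower and Nr1d2 and Ccn4 higher on MCD, and the MCD libraries of Arntl and Npas2 lie just above the controls.

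What set the diet response at CT20 apart was tested directly, as the diet effect at CT20 minus its mean over the other 5 times. In edgeR's test, Ccn4 alone passed, 1 of 20249 genes (0.00494%), while 1162 genes (5.74%) had an unadjusted p under 0.05. In the same comparison 41 genes were called with DESeq2, Ccn4 among them, 25 higher and 16 lower, limma called 3, and edgeR without the sex term 0. Ccn4 encodes a secreted matrix protein of the CCN family that is known as a target of Wnt signalling. It was at 1.48, 1.90 and 1.47 CPM on control and at 8.11, 7.77 and 5.79 CPM on MCD at CT20 (log2 2.15 ± 0.28, adjusted p = 2.65e-05), with no overlap. Its diet effect was 1.25 log2 at CT0, 1.05 at CT16 and 0.07, -0.35 and -0.12 log2 at CT4, CT8 and CT12, so that CT20 exceeded the mean of the others by 1.77 log2 (adjusted p = 0.0483). CT20 thus lay between neighbours of the same sign, and against CT16 and CT0 alone the difference was 1.00 log2 (adjusted p = 1.0), with 0 genes called and 457 at an unadjusted p under 0.05. Over the fits with 1 of 36 libraries left out, Ccn4 was called in 11, with an adjusted p of 0.0213 to 0.288 and a difference of 1.68 to 1.86 log2. Of the CT20 libraries, only leaving out MCD CT20 3 kept it (adjusted p = 0.043). Without control CT08 a its adjusted p was 0.0758, and edgeR called 0 genes, with 1378 at an unadjusted p under 0.05.

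The same test called 0 genes for CT0, 27 for CT4, 12 for CT8, 5 for CT12 and 9 for CT16, and 0, 36, 0, 19 and 30 without control CT08 a. The diet effect itself was called for 2550 genes at CT0, 3679 at CT4, 263 at CT8, 3081 at CT12 and 2532 at CT16, beside 2288 at CT20. Without control CT08 a the count at CT8 was 1212. Per3 (difference -1.32 log2, adjusted p = 0.698), Tef (-0.72, adjusted p = 0.654), Nr1d2 (0.66, adjusted p = 0.847), Npas2 (1.25, adjusted p = 0.98) and Per1 (-1.62, adjusted p = 0.767) did not pass the test of the difference. Mat2a (0.60 log2, adjusted p = 0.598) did not either, nor did Fgf21 (0.75) and Scd1 (0.05). Without control CT08 a none of these 8 passed either, and the difference of Fgf21 was 0.17 log2.

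**Figure D4:**
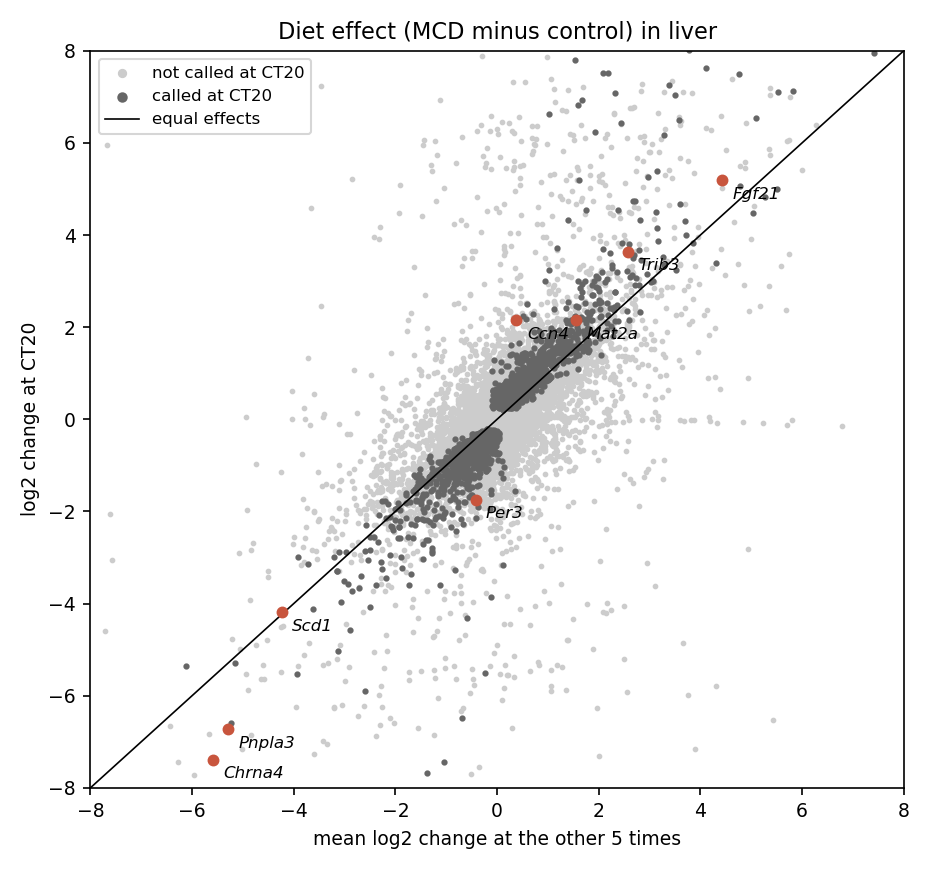
Diet effect (log2, MCD minus control) of each gene at CT20 against its mean over the other 5 times, dark where called at CT20, with a line of equal effects and 39 genes beyond 8 log2 units not drawn, control CT08 a included. Scd1 and Mat2a lie near the line, and Ccn4 lies 1.77 log2 above it.

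List medians at CT20 lay outside the range of the other times for fatty acid synthesis, cholesterol and acute phase and interferon genes, and within it for the other lists drawn up by pathway. Without control CT08 a they also lay outside for bile acid genes (-0.24 log2, against -0.75 to -0.36 log2 at the other times) and for immediate-early and glucocorticoid-related genes (0.98 log2, against 1.07 to 1.76 log2). Integrated stress response genes had medians of 1.28, 1.45, 0.35, 1.40 and 1.46 log2 from CT0 to CT16, and 1.42 log2 at CT20. Fatty acid synthesis genes had -1.08, -1.62, -0.67, -1.41 and -2.18 log2, and -2.19 log2 at CT20. Cholesterol genes had -0.49, -0.23, 0.17 and 0.03 log2 from CT0 to CT12 and then -0.91 log2 at CT16 and -0.92 log2 at CT20. At these last 2 times both lipid lists lay lowest. Interferon and acute phase genes had 0.47, 0.81, 0.28, 0.67 and 0.70 log2, and 0.87 log2 at CT20. Macrophage markers, whose part in this was not tested, had 0.18, 0.64, 0.11, 0.53 and 0.54 log2, and 0.72 log2 at CT20. Without control CT08 a, the CT8 medians of the 4 pathway lists were 0.66, -0.94, -0.20 and 0.54 log2. These orders were not tested, and the 6 times use different libraries.

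**Figure D5:**
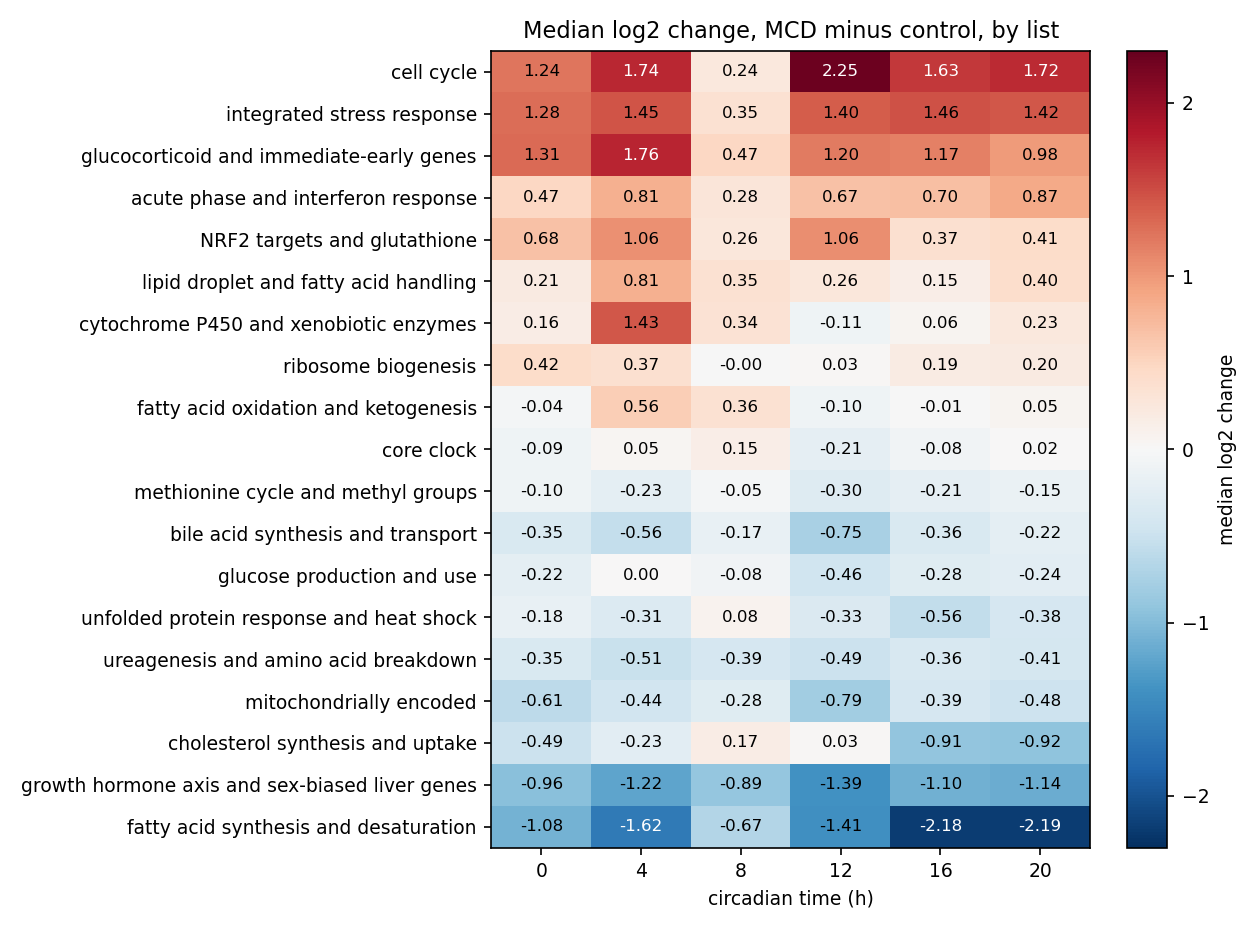
Median diet effect (log2, MCD minus control) of 19 gene lists in liver at 6 circadian times, in the order of the CT20 values, with control CT08 a included. Fatty acid synthesis stands at -2.19 and cholesterol synthesis at -0.92 log2 at CT20, close to CT16.

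Independently of diet, CT20 was compared with the mean of the other 5 times over both diets, a comparison chosen after the test of the difference had been seen. It called 1173 genes (5.79%), 634 higher and 539 lower at CT20, and 1355 without control CT08 a. The count was 602 without MCD CT20 2. Ppard, a nuclear receptor of fatty acid use, was at 73.2, 99.9 and 98.0 CPM in the control and at 52.1, 86.8 and 74.1 CPM in the MCD libraries, and lay 1.88 ± 0.10 log2 above the other times (adjusted p = 1.65e-12). Its mean over libraries was 79.3 CPM on control and 43.2 CPM on MCD at CT0 and lowest, at 11.3 and 11.9 CPM, at CT8. Npas2 (3.62 ± 0.33), Arntl (2.16 ± 0.19), Cry1 (1.58 ± 0.15) and Nfil3 (1.17 ± 0.13) were higher at CT20, and Dbp (-3.12 ± 0.35), Nr1d1 (-2.92 ± 0.38), Ciart (-2.20 ± 0.33) and Nr1d2 (-1.69 ± 0.17) were lower, with adjusted p from 1.67e-07 to 0.000171. The neighbouring times shared part of this pattern. On control, Npas2 was at 26.8, 13.9 and 28.2 CPM at CT0, overlapping CT20, and Arntl at 34.0, 34.4 and 34.1 CPM, within its CT20 range. Dbp was lower still at CT0, at 0.476 to 0.929 CPM on control against 2.31 to 3.17 CPM at CT20, and Cry1 on MCD at CT16 (53.7 to 61.9 CPM) lay within its CT20 range (47.5 to 69.9 CPM). Of the genes that ARNTL drives, Cry1 was thus higher at CT20 while Dbp, Nr1d1, Ciart and Nr1d2 were lower, and Per1 (-0.06 log2, adjusted p = 0.968) was not called. Without control CT08 a the calls named here and below held, with Ppard at 1.87 and Elovl3 at 1.83 log2. Outside the clock, among genes picked after their values were seen, the immediate-early gene Egr1 (2.27 ± 0.29) was higher, and Alas1 of heme synthesis (-1.47 ± 0.31), the retinol dehydrogenase Rdh9 (-1.33 ± 0.19) and the coumarin hydroxylase Cyp2a5 (-1.19 ± 0.27) were lower. Rdh9 and Cyp2a5 lost their calls without the sex term (adjusted p = 0.0908 and 0.157). The elongase Elovl3 was higher (1.89 ± 0.50, adjusted p = 0.0244), and this was lost without MCD CT20 1 (adjusted p = 0.131) or 3 others, and without the sex term (adjusted p = 0.214). Within the diets alone, 91 genes were called on control and 655 on MCD, and whether those counts differ was not tested.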

How the data were processed

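The deposited liver table holds raw counts for each gene in 36 libraries, per the file headers, as whole numbers without normalization. The submitters' processing notes name Trimmomatic, HISAT2, StringTie, DESeq2 and the build GRCm39, without roles. For the annotation release and the strand setting of the counting: not given in the sources used here. Of 135 named genes, 51 overlap a gene on the other strand in GENCODE M21, so these values are uncertain, as are near-identical copies. A pair of columns shares 1 name and was used as control CT08 a and b, without numbers.

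The test was edgeR's quasi-likelihood one (version 4.0.16, glmQLFTest, R 4.3.3), fitted to counts in 1 model of all 36 liver libraries, with 12 groups of diet and time, sex as a term, TMM scaling, the filter on low counts (minimum 10, leaving 20249 of 22823 genes) and 23 residual degrees of freedom. P-values were adjusted by Benjamini-Hochberg over all genes tested, and "called" means an adjusted p under 0.05. Errors are standard errors of the log2 change. The test was checked on simulated data. DESeq2 1.42.0, limma 3.58.1, other scalings, no filter, no sex term, a term for the mt-Nd6 group and the 6 CT20 libraries alone were alternatives, as was leaving out each library.

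Genes named were the 12 largest rises and 12 largest falls among called genes of mean CPM at least 1 with no overlap between diets, up to 4 called members per list, all clock genes and chosen key genes, with other list members added after their values were seen. Members and lists were chosen with earlier results of these data known. The liver libraries held 52600280 to 86740552 counts. To look for a library deposited more than once, counts of CT20 replicates were compared: they differed beyond counting noise in each pair (chi-square per degree of freedom 34.6 to 345). Some members of the lists are counted but not reported here by name.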

Additional observations from a re-analysis of the deposited data

Results flagged for a closer look

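Ccn4 stood out because its diet effect differed between times by a test of the difference itself: the effect at CT20 exceeded the mean of the other 5 times by 1.77 log2 (edgeR quasi-likelihood test, adjusted p = 0.0483). All 3 MCD libraries lay above all 3 controls at CT20, and the same was true at CT0 and CT16. The adjusted p was 0.0213 to 0.288 with each of the 36 libraries left out in turn and under the threshold in 11 of these fits, 0.0537 with the factors of DESeq2's method, 0.0510 without the filter on low counts, 0.108 without the sex term and 0.0221 with limma.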

How the results depend on the processing

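Library totals alone called 3560 genes for the diet at CT20 instead of 2288, and reversed the sign of Rora (0.21 log2), Hlf (0.019) and Ppara (0.11), none of them called. Leaving out 1 library gave 1238 to 2845 genes for the diet at CT20, 0 to 3 for its difference from the other times, and 602 to 1355 for CT20 against the other times over both diets. The difference from the other times called 41 genes with DESeq2 and 3 with limma. It called 0 with DESeq2's size factors in edgeR, library totals alone, no filter, no sex term or only CT16 and CT0 as reference. In these last fits, 457 to 1250 genes had an unadjusted p under 0.05. The cause of these changes was not tested. Signs also reversed for Rora with the mt-Nd6 term (0.012 log2) and without 1 library (range -0.16 to 0.054), for Bhlhe40 without the sex term (-0.025) and without 1 library (range -0.25 to 0.61), and for Cry1 without 1 library (range -0.082 to 0.24), all uncalled genes. Of 94 named genes called at CT20, 48 were called with each CT20 library left out and 46 were lost with at least 1. The labels give no meaning to the replicate numbers beyond sex. Deviations of same-numbered CT20 libraries correlated at 0.298, 0.0697 and 0.366 across genes and those of other pairs at -0.36 to 0.192. Every library but control CT20 2 correlated highest with its own number. The deviations were taken without a sex term, and replicate 3 is the female in both diets, so they cannot tell pairing from sex. Among the males, same numbers gave 0.298 and 0.0697, and different numbers gave 0.192 and -0.0506. The design states no pairing, and pairing was not tested. A fit with the replicate number in place of sex also left out control CT08 a and b, which have no numbers. That left 1 library in the control CT08 group, so its counts are not given. With 3 libraries a group, 1 of them the only female, the data do not separate sex from replicate within a diet.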
